A study of Saccharomyces cerevisiae with 18 samples.

Results

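Histones are the proteins around which DNA is wound, and the transcripts of the histone genes of budding yeast, Saccharomyces cerevisiae, are described here in 3 strains at 2 levels of glucose. The set was given as a list of 10 genes, and 9 of them had a probe set among the 5449 genes measured. They are HTA1 and HTA2 (histone H2A), HTB1 and HTB2 (H2B), HHT1 and HHT2 (H3), HHF1 (H4), HTZ1 (the H2A variant H2A.Z) and HHO1 (the linker histone H1). HHF2, the other H4 gene, was matched to no probe set and is not analysed here. A gene with more than 1 probe set was represented by the brightest, judged by its mean over the 18 arrays.

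Each strain was a snf1 deletion mutant that carried a plasmid. Snf1 is the yeast relative of the mammalian AMP-activated protein kinase (AMPK), and it is needed for growth when glucose runs low. The reference strain, called Snf1 below, carried HA-Snf1. The Alpha1 strain carried HA-Alpha1, in which the kinase domain of mammalian AMPK Alpha1 was joined to the regulatory part of Snf1. The T210A strain carried HA-T210A, in which the threonine that activates Snf1 when phosphorylated was replaced by alanine. Cultures were grown aerobically in bioreactors of 1 litre at 30 °C and pH 5.0, from 40 g/L glucose at the start. Cells were collected at 15 to 20 g/L glucose (high) or at 5 g/L (low), and the labels call them steady-state samples. Each of the 6 groups comprised 3 arrays described as biological replicates. Nothing further is stated about how the cultures were related, so p-values measure the spread between these samples.

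In budding yeast the core histone genes lie as divergent H2A-H2B and H3-H4 gene pairs, each pair being transcribed from a shared promoter region. Their transcription rises as cells enter S phase, when new DNA has to be packaged, and falls again afterwards. The HIR complex with Asf1 and Rtt106 represses all of these pairs but HTA2-HTB2 outside S phase, while Spt10 and Spt21 activate histone genes. HTZ1 and HHO1 stand alone. Htz1 replaces H2A in nucleosomes near promoters, where the SWR1 complex deposits it, and Hho1 binds DNA between nucleosomes. In the annotation used for names, HTA1 (YDR225W) and HTB1 (YDR224C) were neighbours on chromosome IV, and HTA2 (YBL003C) and HTB2 (YBL002W) were neighbours on chromosome II. HHT1 (YBR010W) and HHF1 (YBR009C) also lay side by side on chromosome II, and HHT2 (YNL031C) lay beside HHF2 (YNL030W) on chromosome XIV. HTZ1 (YOL012C) is on chromosome XV and HHO1 (YPL127C) on chromosome XVI.

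Signals are log2 values, differences are log2 ± SE from 1 limma model over all 18 arrays, and a gene was called at a Benjamini-Hochberg adjusted p under 0.05 over all 5449 genes. Across the series, the 3 arrays of a group correlated at 0.992 or above, except those of Alpha1 at low glucose, where the correlations were between 0.978 and 0.984. The median SD of a gene was 0.221 in that group and between 0.104 and 0.125 in the others. Signal of the SNF1 probe set, which may read plasmid transcripts, averaged 12.36 ± 0.09 (SD, n = 3) in Alpha1 at high glucose, against 7.17 ± 0.13 in Snf1 and 7.08 ± 0.16 in T210A. The 261 genes of chromosome VIII had a median 0.74 higher in T210A than in Snf1 at high glucose and 0.57 higher at low glucose. None of the histone genes is on that chromosome.

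No histone gene was called between strains at high glucose, where between 0.918% and 6.31% of all genes were called. At low glucose 8 of the 9 were called lower in T210A than in Snf1, where 26.5% of all genes were. The same 8 were called higher in Alpha1 than in T210A, where 20.8% of all genes were. Within T210A, 8 of the 9 genes fell at low glucose, where 32.8% of all genes were called lower. On the log2 scale HHF1 fell by 0.54 and HTB2 fell by 1.58, the smallest and the largest of these changes. HHT2 was the gene that was not called. In Snf1, 3 of the 9 genes were called higher, a share near the 34.7% of all genes. Of these the linker histone gene HHO1 rose most and was the one called under every alternative. HTB2 and HHT1 were not called in Snf1 (limma adjusted p = 0.149 and 0.405). Under 3 of 29 alternatives HTB2 was called lower there, and HHT1 under 2 of 29. Both were called in a fit of the Snf1 arrays alone and with array weights. HTB2 was also called without Alpha1 replicate 1 at low glucose. In Alpha1, 4 core histone genes were called lower, where 29.2% of all genes were, but its 3 arrays at low glucose differed widely from each other. Bulk RNA cannot tell fewer cells in S phase from less histone RNA per cell.

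**Figure D1:**
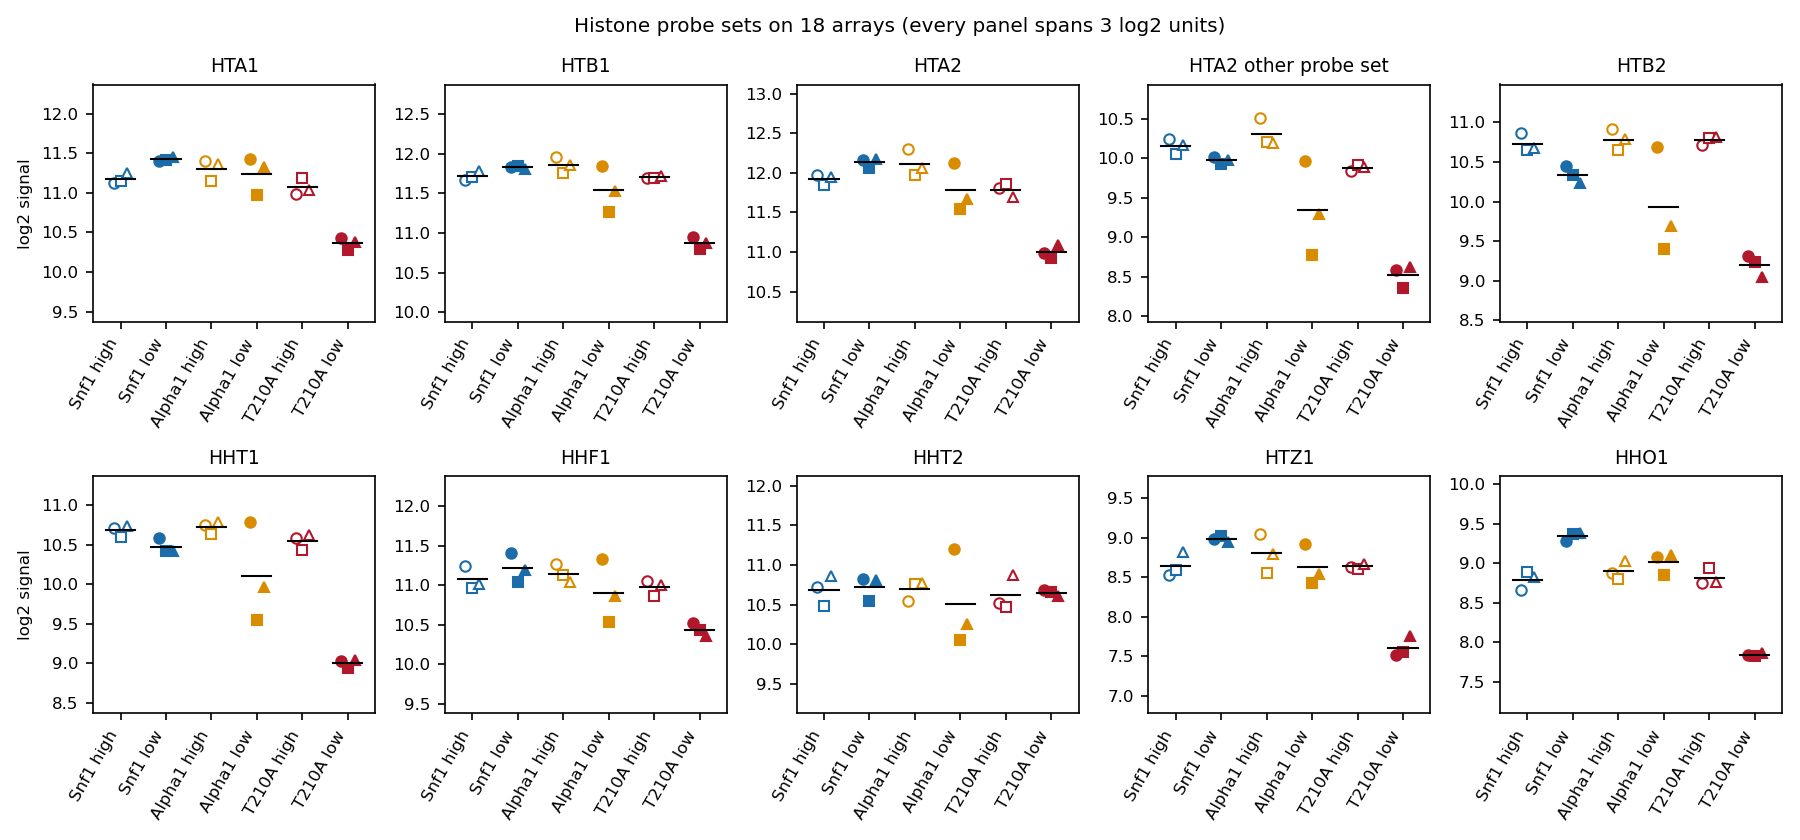
Log2 signal (vertical axis) of the 9 histone genes and of the other HTA2 probe set in the 6 groups (horizontal axis), where circles, squares and triangles are replicates 1, 2 and 3, open symbols are high glucose, filled symbols are low glucose and lines are group means. T210A at low glucose is the lowest group in every panel but that of HHT2, and Alpha1 replicate 1 at low glucose lies above the other two in most panels.

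HTA1 and HTB1 supply H2A and H2B from one divergent pair. HTA1 signal in Snf1 was 11.13, 11.15 and 11.25 at high glucose and 11.41, 11.42 and 11.46 at low glucose. In Alpha1 it was 11.40, 11.16 and 11.36 at high and 11.43, 10.97 and 11.33 at low glucose. In T210A it was 10.98, 11.19 and 11.04 at high and 10.43, 10.28 and 10.38 at low glucose. All 3 low-glucose arrays of T210A thus lay below the other 15, and those of Snf1 lay above their high-glucose counterparts. HTA1 fell by 0.71 ± 0.10 in T210A (limma adjusted p = 3.04e-05, n = 3 per group), which is 1.63-fold. In Snf1 it rose by 0.25 ± 0.10 (adjusted p = 0.0424), a call that ended when arrays were centred on their medians (0.22, adjusted p = 0.160). The difference in Alpha1 was -0.06 ± 0.10 (adjusted p = 0.635).

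HTB1 followed its partner in T210A. Its signal in that strain was 11.70, 11.70 and 11.72 at high and 10.95, 10.80 and 10.87 at low glucose. In Snf1 the values were 11.67, 11.71 and 11.78 against 11.83, 11.85 and 11.81, and in Alpha1 they were 11.96, 11.76 and 11.85 against 11.84, 11.26 and 11.53. The T210A groups were well apart, the Snf1 groups were close but did not overlap, and the Alpha1 groups overlapped. HTB1 fell by 0.83 ± 0.10 in T210A (limma adjusted p = 8.26e-06) and by 0.31 ± 0.10 in Alpha1 (adjusted p = 0.0186). The Alpha1 call was lost under 4 of 29 alternatives, among them quantile normalization (-0.13, adjusted p = 0.210) and a fit of the Alpha1 arrays alone (adjusted p = 0.174). In Snf1 the difference of 0.11 ± 0.10 did not pass (adjusted p = 0.368).

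HTA2 and HTB2 form the other H2A-H2B pair. HTB2 signal in Snf1 was 10.87, 10.66 and 10.67 at high and 10.45, 10.33 and 10.24 at low glucose. In Alpha1 it was 10.91, 10.65 and 10.79 at high and 10.69, 9.40 and 9.69 at low glucose. T210A gave 10.71, 10.81 and 10.82 at high and 9.32, 9.24 and 9.05 at low glucose. Low-glucose arrays were below high-glucose arrays without overlap in Snf1 and T210A, and in Alpha1 replicate 1 overlapped. HTB2 fell by 1.58 ± 0.23 in T210A, the largest fall of the 9 genes and 2.99-fold (limma adjusted p = 3.40e-05). In Alpha1 it fell by 0.86 ± 0.23 (adjusted p = 0.00505, or 0.104 in a fit of the Alpha1 arrays alone), and in Snf1 the difference of -0.39 ± 0.23 did not pass (adjusted p = 0.149).

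HTA2 was read by 2 probe sets that differed in their response. The one with the higher mean carries the suffix that Affymetrix gives to probe sets matching several transcripts, so it may read HTA1 RNA as well. It gave 11.81, 11.86 and 11.69 in T210A at high and 10.99, 10.93 and 11.09 at low glucose. In Snf1 it gave 11.97, 11.84 and 11.95 at high and 12.16, 12.07 and 12.17 at low glucose. These low-glucose values were above the high-glucose ones in Snf1 and below them in T210A. By this probe set HTA2 fell by 0.78 ± 0.12 in T210A (limma adjusted p = 7.18e-05) and by 0.33 ± 0.12 in Alpha1 (adjusted p = 0.0318). The Alpha1 call was lost under 5 of 29 alternatives, among them quantile normalization (-0.16, adjusted p = 0.148) and a fit of the Alpha1 arrays alone (adjusted p = 0.202). The difference in Snf1 was 0.21 ± 0.12 (adjusted p = 0.149).

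The other HTA2 probe set, without that suffix, was examined after the data had been seen. It gave 9.84, 9.91 and 9.89 in T210A at high and 8.59, 8.36 and 8.63 at low glucose. In Snf1 it gave 10.25, 10.05 and 10.16 at high and 10.02, 9.93 and 9.98 at low glucose, and in Alpha1 10.50, 10.21 and 10.19 at high and 9.96, 8.78 and 9.29 at low glucose. Here the low-glucose arrays were the lower ones in all 3 strains, without overlap. The difference was -1.36 ± 0.21 in T210A (limma adjusted p = 5.09e-05), -0.96 ± 0.21 in Alpha1 (adjusted p = 0.00110) and -0.18 ± 0.21 in Snf1 (adjusted p = 0.481). The size of the HTA2 fall in T210A therefore depends on the probe set, and its direction in T210A and Alpha1 does not.

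HHT1 and HHF1 supply H3 and H4 from a shared promoter region. HHT1 signal in T210A was 10.58, 10.43 and 10.62 at high and 9.03, 8.94 and 9.04 at low glucose. In Snf1 it was 10.71, 10.59 and 10.74 at high and 10.58, 10.42 and 10.42 at low glucose, and in Alpha1 10.75, 10.64 and 10.79 at high and 10.79, 9.55 and 9.96 at low glucose. T210A arrays at low glucose were again below all others, while Alpha1 replicate 1 at low glucose was as high as its high-glucose counterparts. HHT1 fell by 1.54 ± 0.21 in T210A, or 2.90-fold (limma adjusted p = 1.78e-05), and by 0.63 ± 0.21 in Alpha1 (adjusted p = 0.0177, or 0.175 in a fit of the Alpha1 arrays alone). In Snf1 the difference was -0.21 ± 0.21 (adjusted p = 0.405).

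HHF1 was read by a probe set with the same suffix, and H4 RNA from HHF2 may contribute to its signal. It gave 11.05, 10.86 and 11.01 in T210A at high and 10.52, 10.43 and 10.36 at low glucose. In Snf1 it gave 11.24, 10.97 and 11.02 against 11.40, 11.04 and 11.19, and in Alpha1 11.27, 11.13 and 11.03 against 11.32, 10.53 and 10.86. Only the T210A groups did not overlap. The fall in T210A was 0.54 ± 0.16 (limma adjusted p = 0.00810), the smallest among the 8 genes called there. The differences in Snf1 (0.14 ± 0.16, adjusted p = 0.477) and Alpha1 (-0.24 ± 0.16, adjusted p = 0.20) did not pass.

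HHT2 encodes the same H3 protein as HHT1, yet it was the gene for which no difference was called. In T210A its signal was 10.52, 10.47 and 10.87 at high and 10.68, 10.66 and 10.61 at low glucose. Snf1 gave 10.72, 10.48 and 10.86 at high and 10.83, 10.54 and 10.82 at low glucose, and Alpha1 gave 10.54, 10.76 and 10.78 at high and 11.20, 10.05 and 10.25 at low glucose. High and low groups overlapped in all 3 strains. The T210A difference was 0.03 (95% interval -0.46 to 0.52, limma adjusted p = 0.941), an interval that does not reach the fall of HHT1. In Snf1 the difference was 0.04 (95% interval -0.45 to 0.53).

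HTZ1 signal in Snf1 was 8.52, 8.59 and 8.82 at high and 8.98, 9.02 and 8.94 at low glucose. In Alpha1 it was 9.05, 8.56 and 8.80 at high and 8.91, 8.43 and 8.54 at low glucose. T210A gave 8.63, 8.60 and 8.67 at high and 7.51, 7.55 and 7.75 at low glucose. The gene for H2A.Z was thus higher at low glucose in all Snf1 arrays, lower in all T210A arrays and overlapping in Alpha1. It fell by 1.03 ± 0.13 in T210A (limma adjusted p = 1.02e-05) and rose by 0.33 ± 0.13 in Snf1 (adjusted p = 0.0385). The rise in Snf1 was not called after quantile normalization (0.19, adjusted p = 0.260) or median centring (0.30, adjusted p = 0.108). In Alpha1 the difference was -0.17 ± 0.13 (adjusted p = 0.274).

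HHO1 moved in opposite directions in Snf1 and T210A. Its signal in Snf1 was 8.66, 8.88 and 8.82 at high and 9.27, 9.37 and 9.38 at low glucose. In T210A it was 8.74, 8.94 and 8.76 at high and 7.84, 7.82 and 7.86 at low glucose, and in Alpha1 8.87, 8.80 and 9.03 at high and 9.07, 8.85 and 9.11 at low glucose. Neither the Snf1 groups nor the T210A groups overlapped, and the Alpha1 groups did. HHO1 rose by 0.55 ± 0.08 in Snf1 (limma adjusted p = 3.37e-05) and fell by 0.97 ± 0.08 in T210A (adjusted p = 1.64e-07). The difference in Alpha1 was 0.11 ± 0.08 (adjusted p = 0.259).

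**Figure D2:**
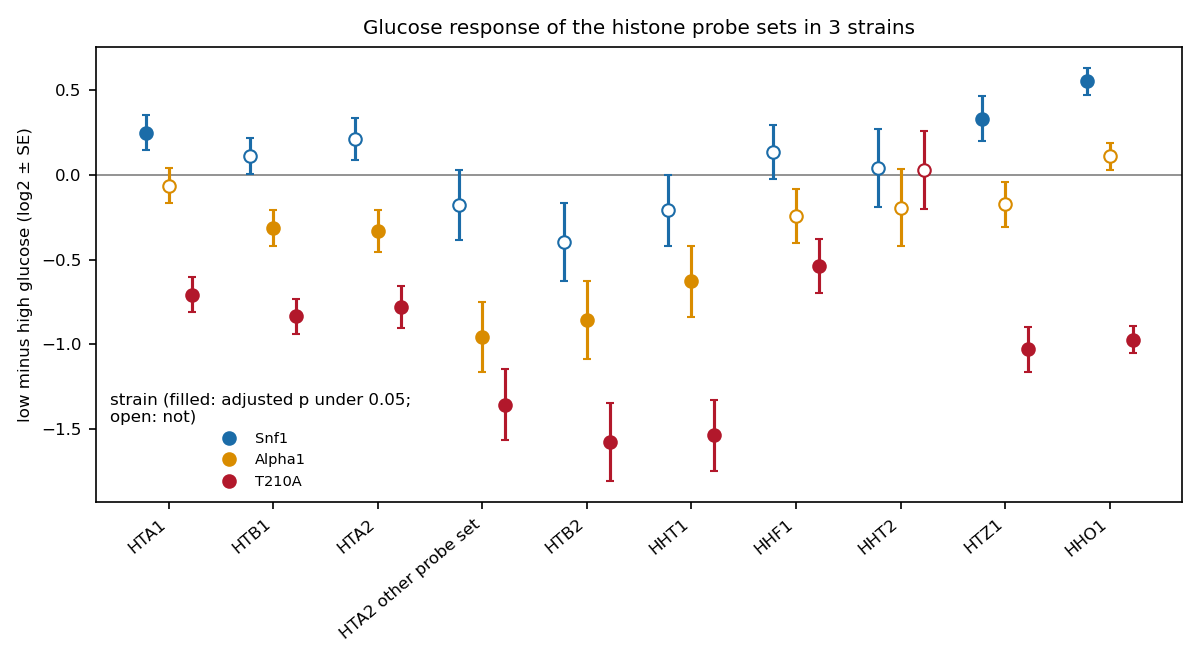
Difference in log2 signal between low and high glucose (vertical axis, ± SE from the limma model, n = 3 arrays per group) for the histone probe sets (horizontal axis) in Snf1, Alpha1 and T210A, with filled symbols at an adjusted p under 0.05. The T210A values lie below 0 for every probe set but that of HHT2, and HHO1 has a rise of 0.55 in Snf1 and a fall of 0.97 in T210A.

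Counted over the 9 genes, the T210A response stood beside a background in which many genes changed. Of all genes, 32.8% were called lower at low glucose in T210A, against 8 of the 9 histone genes, and the histone median was -0.83 against 0.04 for all genes. The arrays of the T210A groups did not overlap, with low glucose lower, for those 8 histone genes and for 35.5% of all genes. In Alpha1, 4 of 9 were called lower where 29.2% of all genes were, and the median was -0.24 against 0.03. In Snf1, 3 of 9 were called higher where 34.7% of all genes were, a share near the background. The number of genes called in Snf1 depended on the fit. A fit of the Snf1 arrays alone called 6, adding HTA2 as higher and HTB2 and HHT1 as lower. Omission of single Snf1 arrays left between 1 and 3, with HHO1 kept each time and HTA1 and HTZ1 not called in 5 of the 6 omissions.

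At high glucose the differences between strains ran from -0.14 (HHT1, T210A against Snf1) to 0.33 (HTA2, Alpha1 against T210A). No histone gene was called between Alpha1 and Snf1, between T210A and Snf1 or between Alpha1 and T210A by limma, where 0.918%, 4.18% and 6.31% of all genes were called. At an unadjusted p under 0.05 the numbers were 0, 0 and 2. The 2 were HTA1 (0.24 ± 0.10, adjusted p = 0.258) and HTA2 (0.33 ± 0.12, adjusted p = 0.179), each higher in Alpha1 than in T210A. With array weights in the fit, HTA1, HTA2 and HHO1 were called in that comparison, and HHO1 was called between Alpha1 and Snf1.

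At low glucose T210A had lower signals than either other strain for 8 of the 9 histone genes. Against Snf1, 8 of the 9 genes were called lower, where 26.5% of all genes were, and the arrays did not overlap for the same 8 genes and for 31.7% of all genes. The largest differences were those of HHO1 (-1.50 ± 0.08 or 2.83-fold, limma adjusted p = 6.36e-09), HHT1 (-1.47 ± 0.21, adjusted p = 4.52e-05) and HTZ1 (-1.37 ± 0.13, adjusted p = 1.27e-06). HTA1, HTB1, HTA2 and HTB2 were lower by between 0.96 and 1.14, and HHF1 by 0.78 ± 0.16 (adjusted p = 0.000911). HHT2 differed by -0.08 (95% interval -0.57 to 0.42, adjusted p = 0.811). Against Alpha1, T210A was lower for the same genes. They were called higher in Alpha1 where 20.8% of all genes were, by between 0.47 (HHF1) and 1.17 (HHO1). A fit of these groups alone did not call HTB2 (adjusted p = 0.206), HHT1 (0.0700) or HHF1 (0.179). HHF1 was lost under 5 of 29 alternatives, and without Alpha1 replicate 1 the HTB2 difference was 0.34 instead of 0.72.

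Alpha1 at low glucose lay between the other strains for most of these genes. Against Snf1, 2 of the 9 were called lower, where 12.9% of all genes were. They were HHO1 (-0.33 ± 0.08, limma adjusted p = 0.00756) and HTA2 (-0.35 ± 0.12, adjusted p = 0.0469). HTA2 lost its call under 17 of 29 alternatives, and HHO1 with array weights (adjusted p = 0.0566) and in a fit of these groups alone (0.0773). All 9 differences were below 0, with a median of -0.33 against 0.01 for all genes. T210A at low glucose was the lowest of the 6 groups for all measured genes but HHT2, and did not overlap the next group. Above it, most neighbouring groups overlapped. Snf1 at low glucose was the highest group for HTA1, HTA2, HHF1, HHT2, HTZ1 and HHO1, and was separated from the next group for HTA1 and HHO1. By the other HTA2 probe set it averaged 9.98, below Alpha1 (10.30) and Snf1 (10.15) at high glucose.

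The responses to glucose were also compared directly between strains. The T210A response was called lower than that of Snf1 for 8 of the 9 genes, where 18.3% of all genes were called lower. The differences ran from -0.67 ± 0.23 for HHF1 (limma adjusted p = 0.0295) to -1.53 ± 0.11 for HHO1 (adjusted p = 5.03e-07). That of HHF1 was not called after the omission of any 1 of 7 arrays, for example -0.58 with an adjusted p of 0.0736 without Snf1 replicate 1 at low glucose. The Alpha1 response was above that of T210A for HTA1, HTB1, HHT1, HTZ1 and HHO1, 5 genes where 10.9% of all genes were called higher. The HHT1 call (0.91 ± 0.30, adjusted p = 0.0456) was lost under 18 of 29 alternatives and that of HTB1 under 4. Between Alpha1 and Snf1, HHO1 alone was called, at -0.44 ± 0.11 (adjusted p = 0.0203, lost under 3 of 29), where 4.37% of all genes were called lower.

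The values of Alpha1 at low glucose rest on 3 arrays that differed together over the histone genes. Relative to the group mean, the 7 core histone genes measured averaged 0.49 on replicate 1, -0.39 on replicate 2 and -0.10 on replicate 3. All 7 were above the mean on replicate 1 and all were below it on replicate 2. In the other 15 arrays the average deviation stayed between -0.08 and 0.07. Without replicate 1, an omission singled out after the data had been seen, 7 of the 9 genes were called in Alpha1 instead of 4. Against Snf1 at low glucose, 8 instead of 2 were then called lower. The difference between the Alpha1 and Snf1 responses was then called for 8 genes instead of 1. Under that omission HTB2 fell by 1.24 ± 0.11 and HHT1 by 0.97 ± 0.10 in Alpha1 (limma adjusted p = 6.47e-07 and 3.16e-06). HHT2 fell by 0.54 (adjusted p = 0.00421), and HHF1 was no longer called between Alpha1 and T210A at low glucose (0.26, adjusted p = 0.124). Without replicate 2 instead, 1 gene was called in Alpha1, and without replicate 3, 2 were. Over all genes, omission of single arrays of any group moved the counts in either direction too. The 3461 called in Alpha1 became 3183 to 3616, and the 1632 called between Alpha1 and Snf1 at low glucose became 1301 to 1899. For the difference between the Alpha1 and Snf1 responses the 746 became 587 to 1158. These ranges count both directions and every omission, so they give no matching share for the omission of replicate 1. The histone counts under that omission are therefore not read as particular to histone genes.

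**Figure D3:**
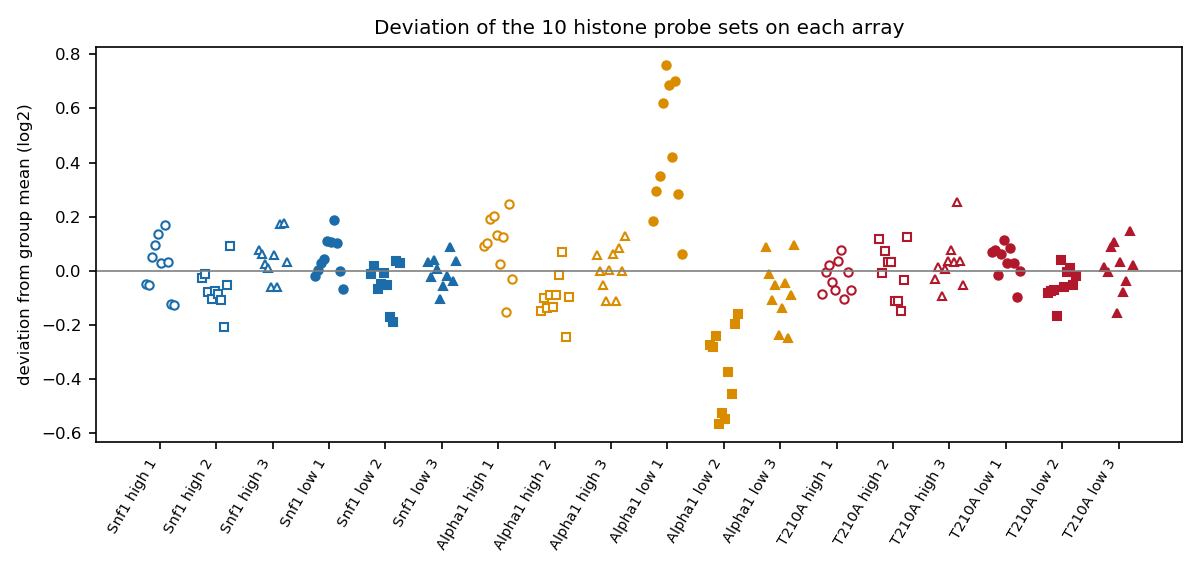
Deviation of each of the 10 histone probe sets from its group mean (vertical axis, log2) on each of the 18 arrays (horizontal axis), with symbols as in the plot of signals by group. Alpha1 replicate 1 at low glucose lies above 0 for all probe sets and replicate 2 below 0 for all, while the other arrays scatter about 0.

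Other genes of the cell cycle were set beside these arrays, since histone transcription is tied to S phase. On the Alpha1 arrays at low glucose, 8 G1/S genes averaged -0.29, 0.17 and -0.56 relative to their means over the 18 arrays, in the order of the replicates. The core histone genes averaged 0.40, -0.48 and -0.19 on the same scale. For 26 DNA replication genes the averages were -0.25, -0.24 and -0.56, for 7 G2/M genes 0.02, -0.14 and -0.27, and for 8 M/G1 genes -0.02, -0.27 and 0.12. Replicate 1 was thus highest for the histone and G2/M genes, replicate 2 for the G1/S genes and replicate 3 for the M/G1 genes. The part of cell cycle position in the spread of these arrays was not tested.

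Copies of a histone gene were also compared with each other within each array, a comparison chosen after the data had been seen. Because 2 probe sets bind with different strength, the difference between them is given relative to its mean over the 18 arrays, and only its change with glucose is read. HTB2 minus HTB1 was 0.31 ± 0.17 (SD, n = 3) at high and -0.20 ± 0.10 at low glucose in Snf1. It was 0.22 ± 0.03 and -0.32 ± 0.40 in Alpha1, and 0.37 ± 0.06 and -0.38 ± 0.14 in T210A. In every strain the low-glucose arrays lay below the high-glucose arrays, so HTB2 was lowered against HTB1 also in Snf1. The change averaged -0.60 over the strains. An exact permutation test of low and high within strains (two-sided, 8000 assignments) gave p = 0.00025, the smallest it can give, or 0.0005 after Benjamini-Hochberg adjustment over 4 pairs.

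The H2A copies changed in the same direction by the HTA2 probe set without the suffix. HTA2 minus HTA1 changed with glucose by -0.43 in Snf1, -0.90 in Alpha1 and -0.65 in T210A, without overlap in any of them (exact permutation p = 0.00025 over the strains, adjusted 0.0005). By the probe set that may read both genes the changes were -0.04, -0.27 and -0.08 (exact permutation p = 0.0265, adjusted 0.0265). HHT1 minus HHT2 changed by -0.25 in Snf1, -0.44 in Alpha1 and -1.57 in T210A (exact permutation p = 0.0005 over the strains, adjusted 0.000667). For this difference the high and low groups of Snf1 overlapped, while those of Alpha1 and T210A did not. On the T210A arrays at low glucose this difference was -1.25, -1.32 and -1.18, and on the other 15 arrays it was at or above -0.10. Within 1 strain, 3 arrays against 3 cannot give an exact p below 0.1.

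**Figure D4:**
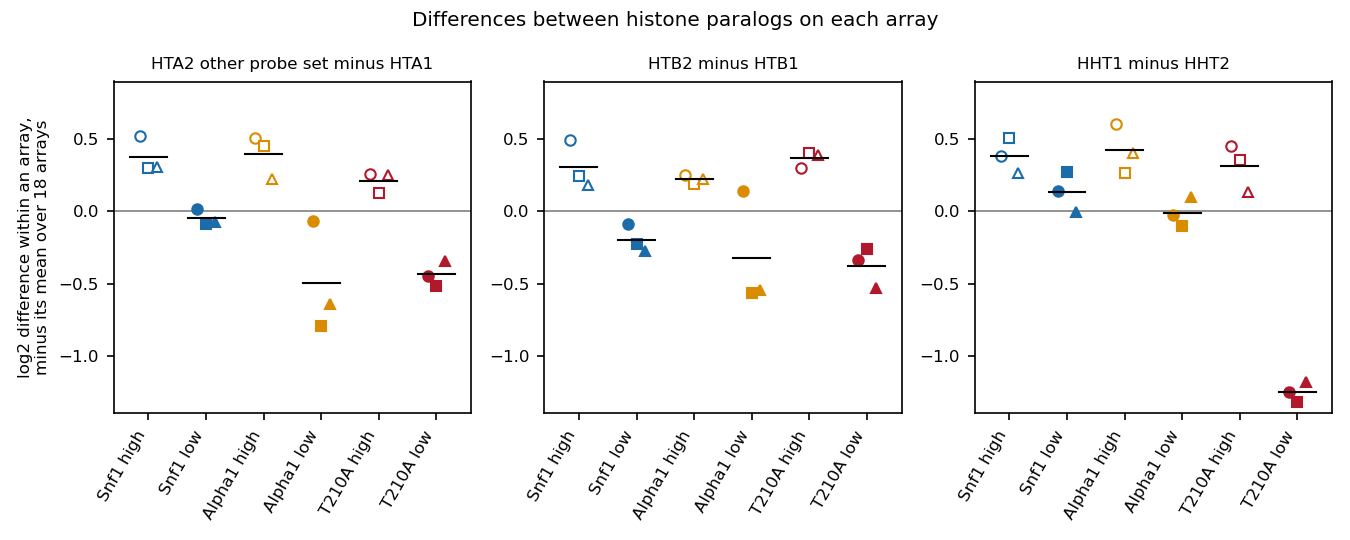
Log2 difference between the probe sets of HTA2 (the one without the suffix) and HTA1, HTB2 and HTB1, and HHT1 and HHT2 on each array, less its mean over the 18 arrays (vertical axis), in the 6 groups (horizontal axis), with symbols as in the plot of signals by group and lines for group means. In the H2A and H2B panels the filled symbols lie below the open ones in each strain, and for H3 the T210A arrays at low glucose lie near -1.25, apart from all others.

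Partners of a divergent pair also varied together among replicates. Deviations from the group mean correlated over 18 arrays at 0.86 for HTA1 and HTB1, 0.82 for HTA2 and HTB2, and 0.86 for HHT1 and HHF1. The other 18 pairs of core genes gave 0.49 to 0.93 with a median of 0.76. The correlations were lower without the arrays of Alpha1 at low glucose. Over the other 15 arrays the divergent pairs gave 0.74, 0.29 and 0.53, and the other pairs gave -0.26 to 0.61 with a median of 0.29. These values describe arrays that share preparation and normalization.

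Genes whose products control or handle histones were counted in the same comparisons. Of 6 genes for repressors of histone transcription, 1 was higher and 4 were lower at low glucose in T210A, where 32.8% of all genes were called lower. Among the 5449 genes, 3841 were called in that strain, 1786 of them lower and the others higher. In Snf1, 3 were lower, where 32.7% of all genes were called lower. ASF1, which encodes a histone chaperone that works with HIR, fell by 0.58 ± 0.11 in T210A (limma adjusted p = 0.000400) and by 1.00 ± 0.11 in Snf1 (adjusted p = 2.65e-06). HIR3, for a subunit of HIR itself, rose by 0.50 ± 0.18 in T210A (adjusted p = 0.0253), and its difference in Snf1 was -0.38 ± 0.18 (adjusted p = 0.0820). The activator gene SPT21 fell in all 3 strains, by 0.67 in Snf1 and by 0.99 in both Alpha1 and T210A. SPT10 rose by 0.53 ± 0.16 in T210A (adjusted p = 0.00964) and had a difference of -0.14 ± 0.16 in Snf1 (adjusted p = 0.477). SWI4, whose product drives transcription at the start of the cycle, fell by 0.55 ± 0.12 in T210A (adjusted p = 0.00108). SPT10, SPT21 and SWI4 had dim signals, which averaged 3.28, 2.96 and 2.75 in T210A at low glucose. The deposited values start at 2.25, and the medians of the arrays lay between 6.77 and 7.03. Differences so near the lowest signals are less certain.

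Of 15 genes for histone chaperones and histone acetyltransferases, 8 were lower and 1 higher at low glucose in T210A. The median was -0.55. Among all 5449 genes, 3841 were called there, 1786 of them (32.8% of all genes) lower and the others higher. In Snf1, 6 were lower and 1 higher, with a median of -0.24. Of all genes, 32.7% were called lower and 34.7% higher in Snf1. NHP6A, for a nucleosome-binding HMG protein, fell by 1.39 ± 0.13 in T210A (limma adjusted p = 5.77e-07). RLF2, for the largest subunit of the chromatin assembly factor CAF-1, fell by 1.12 ± 0.16 in T210A and by 1.32 ± 0.16 in Snf1 (adjusted p = 3.29e-05 and 6.64e-06). SPT16, for a subunit of the FACT complex, fell by 1.06 ± 0.12 in T210A and by 0.30 ± 0.12 in Snf1 (adjusted p = 2.20e-06 and 0.0333).

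The SWR1 complex, which places Htz1, was mixed. Of 14 genes, 4 were higher and 5 lower in T210A at low glucose, where 32.8% of all genes were lower. The median of 0.03 was close to the 0.04 of all genes. In that strain 3841 of the 5449 genes were called, 1786 of them lower and the others higher. SWR1, for the catalytic subunit, fell by 1.13 ± 0.10 in T210A and by 0.40 ± 0.10 in Snf1 (limma adjusted p = 2.37e-07 and 0.00241). YAF9 rose by 0.62 in T210A and fell by 0.53 in Snf1 (adjusted p = 0.000788 and 0.00262). Of 8 genes for histone and histone RNA turnover, 5 were lower and 1 higher in T210A, where 32.8% of all genes were lower. RAD53, a checkpoint kinase that also limits free histones, fell by 0.92 ± 0.21 in Snf1, 1.08 ± 0.21 in Alpha1 and 1.03 ± 0.21 in T210A (adjusted p = 0.00160, 0.000547 and 0.000711). CSE4, for the H3 variant of the centromere, was not called at low glucose in T210A (-0.21 ± 0.12, adjusted p = 0.134). The gene of its chaperone, SCM3, rose by 0.92 ± 0.10 in that strain (adjusted p = 1.59e-06).

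Most DNA replication genes fell at low glucose in every strain. Of 26 such genes, 23 were called lower in each strain, with medians of -0.59 in Snf1, -0.74 in Alpha1 and -0.92 in T210A. Of all genes, 32.7%, 29.2% and 32.8% were called lower in these strains. POL30, for the sliding clamp PCNA, fell by 1.28 ± 0.18 in Snf1 and fell by 2.34 ± 0.18 in T210A (limma adjusted p = 1.98e-05 and 6.49e-08). RNR1, for the large subunit of ribonucleotide reductase, fell by 1.22 ± 0.21 and 2.63 ± 0.21 (adjusted p = 0.000157 and 1.09e-07). T210A was called below Snf1 at low glucose for 16 of the 26, where 26.5% of all genes were, and above it for 4. Among all 5449 genes, 3066 were called in this comparison, 1445 of them lower and the others higher.

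Of 8 G1/S genes, 5 were lower at low glucose in Snf1, 5 in Alpha1 and 6 in T210A, with medians of -0.60, -0.62 and -0.91. Of all genes, 32.7%, 29.2% and 32.8% were called lower in these strains, and 34.7% were called higher in Snf1. Of 7 G2/M genes measured, 5 were lower in T210A with a median of -1.07, while in Snf1 2 were lower and 2 higher. The mitotic cyclin gene CLB2 fell by 1.59 ± 0.26 in T210A (limma adjusted p = 9.37e-05), and CDC5, for the polo kinase, fell by 1.62 there. Of 8 M/G1 genes, 5 were higher in Snf1, where 34.7% of all genes were, and 4 were lower in T210A, where 32.8% were. At low glucose the averages of the G1/S, G2/M, M/G1 and DNA replication lists were all lower in T210A than in Snf1. Called lower there were 2 of 8 G1/S, 5 of 7 G2/M and 7 of 8 M/G1 genes, where 26.5% of all genes were. The G1/S share was near that of all genes. Averaged per array, relative to the mean over the 18 arrays, the G1/S list was -0.57 ± 0.03 (SD, n = 3) in T210A at low glucose, against -0.34 ± 0.15 in Snf1. The G2/M list averaged -0.61 ± 0.11 against 0.11 ± 0.14, and the core histone genes averaged -0.73 ± 0.05 against 0.22 ± 0.07. For the M/G1 list the values were -0.40 ± 0.04 against 0.40 ± 0.09, and for the DNA replication list -0.61 ± 0.04 against -0.31 ± 0.105. In Snf1 at high glucose the G1/S and DNA replication lists averaged 0.32 and 0.42, and the core histone genes 0.20. Those lists thus fell with low glucose in Snf1. The core histone average hardly moved there, over genes whose differences ran from -0.39 (HTB2) to 0.25 (HTA1). The part of cell cycle position in the histone differences was not tested.

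**Figure D5:**
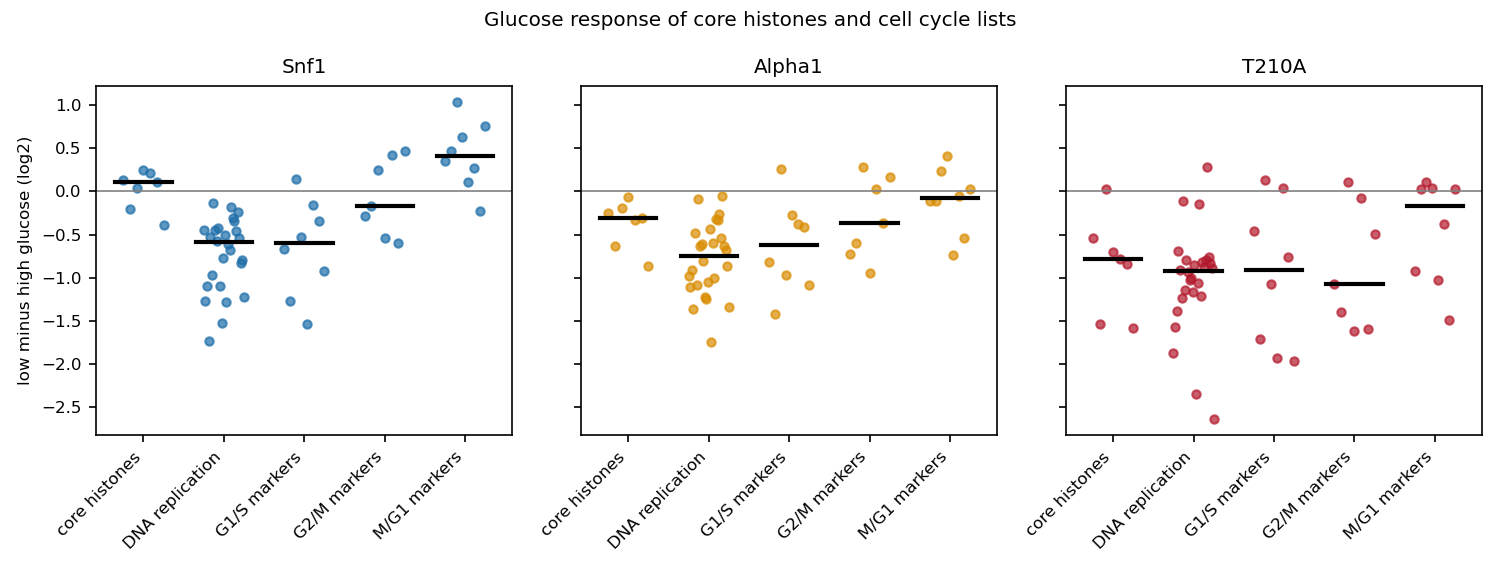
Difference in log2 signal between low and high glucose (vertical axis) for single genes of 5 lists (horizontal axis) in Snf1, Alpha1 and T210A, with each point a gene and each line the median of its list. The core histone genes lie around 0 in Snf1 and at a median of -0.78 in T210A, whereas the DNA replication genes have medians below 0 in all 3 strains.

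The genes whose signal followed the core histone mean most closely over the 18 arrays were AIM34 (r = 0.97), AIM45 (0.96), AIM44 (0.94), DCP1 (0.94), NHP6A (0.94), GAS3 (0.94), GCV3 (0.94) and RNA14 (0.93). Their signals, like those of the histone genes, were lowest in T210A at low glucose. AIM34, for example, averaged 7.38 in T210A at high and 5.41 at low glucose, against 7.57 and 7.42 in Snf1. Those most opposite were RAM2 (r = -0.97), ASK10 (-0.97), MCM1 (-0.96) and DOG1 (-0.96), the last a gene of chromosome VIII. HTZ1 was most like VMA4 (0.96), PRE5 (0.95) and PDS1 (0.94), and HHO1 most like NPC2 (0.95), HEM13 (0.95) and MIX17 (0.95). These correlations describe 18 arrays in 6 groups and carry no test.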

How the data were processed

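The deposited table holds log2 signals, 1 for each of 5716 probe sets on each of 18 arrays. RMA and the affy package are named in the submitters' processing notes, without versions. The authors' values were used as deposited, with no further scaling, and range from 2.25 to 14.3. The platform annotation gave 1 gene for 5498 probe sets and no gene for 218. Symbols were updated for 12 genes through the RefSeq table, which also gave chromosomes and neighbours. The files state no genome build. The brightest probe set was kept for the 47 genes that had more than 1, leaving 5449 genes. No arrays were identical. The number of arrays limits the precision.

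A mean per strain and glucose group was fitted over all 18 arrays with limma 3.58.1 in R 4.3.3 (residual degrees of freedom 12, prior 1.18). Its moderated test was applied to 12 comparisons: 9 of 2 groups and 3 between glucose responses. Adjustment was by Benjamini-Hochberg over all genes. The SE pools the 6 groups. Comparisons with a common group share its arrays. The procedure was tested on simulated data, drawn independently with 1 SD per gene in all 6 groups. That simulation did not cover the wider spread of Alpha1 at low glucose. Alternatives were an intensity trend with a robust prior, only the groups compared, median centring, array weights, quantile normalization, a block for the replicate number, omission of dim or chromosome VIII genes, other uses of several probe sets and omission of each array. The other HTA2 probe set and the comparison of gene copies were chosen later, with these data in view.

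The histone genes and the lists of other genes were chosen with earlier results of these data known. All 10 histone genes were to be named in every comparison, with up to 4 called genes of each list and, in any comparison, CSE4, SPT10, SPT21, HIR1, HIR2, HIR3, HPC2 and SWI4. Genes most like the histone genes were the 8 highest and 4 lowest Pearson correlations with the core mean, and 3 each for HTZ1 and HHO1. Probe sets may not separate near-identical copies.

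Replicate numbers were checked as pairs by correlating, over all genes, how same-numbered arrays deviated from their group means. All 3 correlations were above 0.1 in 5 of the 9 comparisons of 2 groups, with the lowest at 0.20 for low against high glucose in Snf1, 0.11 in Alpha1, 0.38 and 0.24 for T210A against Snf1 at high and low glucose, and 0.13 for Alpha1 against T210A at low glucose.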

Additional observations from a re-analysis of the deposited data

Results flagged for a closer look

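The glucose response of a histone gene differed between 2 strains in 14 cases, each by limma's test of the difference itself at an adjusted p under 0.05. The T210A response was below the Snf1 response by a log2 difference of -0.96 for HTA1, -0.95 for HTB1, -0.99 for HTA2 and -1.18 for HTB2. For the remaining genes of that comparison it was -1.33 for HHT1, -0.67 for HHF1, -1.36 for HTZ1 and -1.53 for HHO1. The Alpha1 response was above the T210A response by 0.64 for HTA1, 0.52 for HTB1, 0.91 for HHT1, 0.86 for HTZ1 and 1.08 for HHO1. The call of HHT1 was lost under 18 of 29 alternatives (adjusted p up to 0.122) and that of HTB1 under 4 (up to 0.0800). The Alpha1 response of HHO1 was also below that of Snf1, at -0.44, a call lost under 3 of 29. The HHF1 call between T210A and Snf1 was lost under 7 of 29. All 3 comparisons share strains, so their values are not independent.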

How the results depend on the processing

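Alternatives comprised 11 changes of the fit, the genes or the scaling and the omission of each of the 18 arrays. The 8 histone genes called lower at low glucose in T210A and the 8 called below Snf1 there were 8 under all of them, and 0 were called between T210A and Snf1 at high glucose. Of 3132 values for single genes, 2989 kept their side of the threshold, 87 lost a call and 56 gained one. The sign changed in 43, of which 26 were for HHT2, and none of these was called under either setting. A fit of only the groups compared called 6 instead of 3 in Snf1, 0 instead of 4 in Alpha1, 0 instead of 2 for Alpha1 against Snf1 and 5 instead of 8 for Alpha1 against T210A at low glucose. For the response differences it called 0 instead of 1 (Alpha1 against Snf1) and 3 instead of 5 (Alpha1 against T210A). Median centring called 1 in Snf1, 1 for Alpha1 against Snf1 at low glucose and 3 for the Alpha1 against T210A response. Array weights called 7 in Snf1, 1 for Alpha1 against Snf1 and 3 for Alpha1 against T210A at high glucose. Quantile normalization called 2 in Alpha1. The Alpha1 against Snf1 response had 2 calls with an intensity trend or without dim genes, and 3 with quantile normalization or array weights.

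With the replicate number as a block, 5 instead of 2 genes were called for Alpha1 against Snf1 at low glucose and 3 instead of 1 for the response difference, and the block also added HTA2 to the Alpha1 against T210A response. It changed no call in the 5 comparisons whose numbers paired the arrays, nor any other call. Leaving out single arrays gave 1 to 5 calls in Snf1, 1 to 7 in Alpha1, 1 to 8 for Alpha1 against Snf1 and 6 to 8 for Alpha1 against T210A at low glucose, and 0 to 1 for Alpha1 against T210A at high glucose. For the responses it gave 0 to 8 (Alpha1 against Snf1), 3 to 7 (Alpha1 against T210A) and 7 to 8 (T210A against Snf1). The cause of these changes was not tested.

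Counts over all genes also moved, so the shifts in histone counts are not read as particular to histone genes. Under the 11 changes of the fit, the genes or the scaling, the 3669 genes called in Snf1 became 3167 to 4291. In Alpha1 the 3461 became 2651 to 3741. At low glucose the 1632 between Alpha1 and Snf1 became 603 to 2015, and the 2263 between Alpha1 and T210A became 1244 to 2646. Between T210A and Snf1 at high glucose 228 genes were called, against 18 without the genes of chromosome VIII and 572 with array weights. Between Alpha1 and Snf1 at high glucose the 50 called became 19 to 396, and between Alpha1 and T210A the 344 became 80 to 1241.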
